A study of Homo sapiens with 8 samples.

Results

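Histone lysine methyltransferases and demethylases place and remove methyl groups on lysines of histones H3 and H4. The 42 genes described here were chosen by name from these enzyme families, grouped by the lysine they act on, and all 42 were found among the 20453 gene IDs counted. They comprise 24 methyltransferases and related genes (writers) and 18 demethylases (erasers). Their mRNA and their ribosome footprints, stretches of mRNA shielded from nuclease by a translating ribosome, were counted in cells given a wild-type copy of DNMT3A by transduction and in cells given a mutant copy. DNMT3A methylates DNA de novo, and its mutations recur in acute myeloid leukaemia. The label of every culture is THP-1, an established human monocytic leukaemia line, and since both groups received a DNMT3A copy, there was no group without one. Each genotype had 2 mRNA and 2 footprint libraries, 8 in all. The sources used here do not give the vector, its promoter, the number of clones or whether replicates are separate cultures.

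Methylation of lysine 36 on histone H3 (H3K36) is tied directly to DNMT3A, because the PWWP domain of DNMT3A binds nucleosomes that carry this mark. The NSD enzymes and ASH1L place the dimethyl mark, SETD2 places the trimethyl mark in transcribed gene bodies, and KDM2 and KDM4 enzymes remove methyl groups from the same residue. Unmethylated H3K4 is recognised by the ADD domain of DNMT3A, while H3K4 methylation, made by KMT2 and SETD1 enzymes, keeps it away. H3K27 methylation by EZH2 and H3K9 methylation by SUV39H, SETDB and EHMT enzymes mark silent chromatin, H3K79 is methylated by DOT1L, and H4K20 by the KMT5 enzymes. Rearrangements of KMT2A and of NSD genes are known in leukaemia.

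DNMT3A targets cytosines in CG pairs, and the sequence just upstream of the transcription start was read for members whose values carry the results below. 4 windows of 250 bases are shown, each ending at the base before the start listed in RefSeq's promoter table for GRCh38.p14, 5′ to 3′ on the gene's strand, with each CG pair in capitals. SETD2 and ASH1L were higher in the mutant in both assays, KDM4B was lower in both, and KMT2D was lower in mRNA and higher in footprints. The SETD2 window holds 21 CG pairs (chr3:47164114-47164363, minus strand), the ASH1L window 23 (chr1:155562804-155563053, minus strand), the KDM4B window 36 (chr19:4968863-4969112, plus strand) and the KMT2D window 23 (chr12:49060795-49061044, minus strand).
SETD2: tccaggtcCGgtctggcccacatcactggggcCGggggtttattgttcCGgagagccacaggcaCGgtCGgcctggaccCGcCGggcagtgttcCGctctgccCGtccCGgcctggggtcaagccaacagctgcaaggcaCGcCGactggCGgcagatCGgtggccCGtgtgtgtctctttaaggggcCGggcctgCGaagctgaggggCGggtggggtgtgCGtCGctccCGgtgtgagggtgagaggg
ASH1L: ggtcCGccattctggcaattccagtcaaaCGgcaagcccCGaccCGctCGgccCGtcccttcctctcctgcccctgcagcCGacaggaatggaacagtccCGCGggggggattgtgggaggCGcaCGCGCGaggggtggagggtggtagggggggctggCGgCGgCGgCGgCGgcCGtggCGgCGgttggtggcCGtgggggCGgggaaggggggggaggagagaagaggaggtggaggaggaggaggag
KDM4B: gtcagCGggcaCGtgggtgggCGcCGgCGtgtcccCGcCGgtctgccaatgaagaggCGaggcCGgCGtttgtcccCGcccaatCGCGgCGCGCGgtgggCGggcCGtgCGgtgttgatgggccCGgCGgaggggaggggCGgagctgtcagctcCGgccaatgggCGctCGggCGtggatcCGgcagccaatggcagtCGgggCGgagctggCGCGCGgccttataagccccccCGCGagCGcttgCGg
KMT2D: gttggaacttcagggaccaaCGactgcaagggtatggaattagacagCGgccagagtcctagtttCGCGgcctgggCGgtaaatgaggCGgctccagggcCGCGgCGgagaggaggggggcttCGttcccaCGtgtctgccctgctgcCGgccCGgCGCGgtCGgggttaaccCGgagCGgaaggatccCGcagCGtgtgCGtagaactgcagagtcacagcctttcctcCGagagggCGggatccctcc
The table held 59 starts of 39 members, with NSD3, SETD1B and DOT1L not matched. The motif CG reads the same on both strands, and windows of 250 bases upstream of those starts held a median of 25 CG pairs (from 1 to 50). The same count had a median of 21 over 12842 starts of genes tested in mRNA and of 11 over all 35114 starts in the table, of which 93.9% held at least 1 pair. NSD2 and KDM7A were at the high end, and 1 start each of KDM6B and PHF8 at the low end. The KDM4B and KMT2D windows adjoin the gene's annotated span, while those of SETD2 and ASH1L lie inside it, since their listed start is not the outermost one. These counts describe the sequence, and methylation was not measured.

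Total counts lay between 3415999 and 4523475 in the mRNA libraries, between 1611724 and 1988513 in wild-type footprints, and at 944824 and 603360 in mutant footprints. Values are in CPM, the read count relative to the library's size, scaled between the libraries of an assay, and a floor of 3 counts stood for 0.671 to 0.885 CPM in mRNA and for 1.54 to 4.89 CPM in footprints, which covers counting error only. The replicates of a group lay close together. The chi-square of replicate counts per degree of freedom, which is 1 where libraries differ by read sampling alone, was 1.08 in wild-type and 1.33 in mutant mRNA, and 1.01 in wild-type and 0.925 in mutant footprints. The footprint replicates therefore differed by no more than sampling noise, so a pair cannot be told apart from 1 library sequenced again. If each pair were counted as 1 sample, no footprint test would be possible. The p-values thus reflect how far these libraries differ, a spread that may be technical.

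The labelled cell type was checked against markers. Of 20 monocyte markers 4 reached 10 CPM in each mRNA library (CD33, SPI1, CD68 and LYZ), and 9 were without a single read in all 4, among them S100A8, S100A9, FCN1, CSF1R and IRF8. Erythroid and megakaryocyte genes were abundant, with 16 or 17 of 19 markers at 10 CPM or more in each mRNA library. GATA1, the main transcription factor of that lineage, stood at 437 ± 0.317 CPM with wild-type and 398 ± 0.589 CPM with mutant DNMT3A (SD, n = 2) in mRNA. The markers therefore go against the label, and the cells are not called monocytic here. Summed erythroid and megakaryocyte marker levels in mRNA were 2806 to 2844 CPM in wild type and 2312 to 2382 CPM in the mutant. Of 5 epithelial markers 4 reached 10 CPM, with sums of 1164 to 1201 CPM in wild type and 911 to 916 CPM in the mutant. The monocyte sum was 165 to 168 CPM in wild type and 163 to 172 CPM in the mutant, and of 6 T cell markers 1 (CD3D) reached 10 CPM. No B cell, fibroblast, endothelial or progenitor marker did. The part of these differences in the results below was not tested, and in bulk samples fewer cells of a type and less RNA per cell cannot be told apart.

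DNMT3A itself was read at 291 and 294 CPM in wild type and at 240.5 and 244 CPM in the mutant in mRNA (log2 fold change -0.27, SE 0.053, adjusted p = 4.3e-06). Both mutant libraries lay below both wild-type libraries. Its footprints were 137 and 153 CPM in wild type against 143 and 148 CPM in the mutant, with overlap (log2 fold change 0.00, adjusted p = 0.992). Reads of the introduced copy and of the cell's own gene were not told apart here, so these counts do not show which allele a library carried. How many of the reads came from the introduced copy is not known. DNMT3B, the related de novo enzyme, fell in mRNA (log2 fold change -0.22, adjusted p = 0.00397), a call lost without wild-type replicate 2 (-0.18) or mutant replicate 1 (-0.17). DNMT3L was at 0 reads in the 8 libraries, at or under the floor.

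Differences were tested with edgeR's quasi-likelihood method over all genes, with Benjamini-Hochberg adjustment, and a gene was called at an adjusted p under 0.05. Fold changes are mutant over wild type. In mRNA, 10 of the 42 members rose, 13 fell and 19 were not called, where 37.7% of all 10756 genes tested were called. The members' share was 54.8%, and their counts were larger, with a median of 452 reads against 164 for all genes tested. Their log2 fold changes ran from -0.37 to 0.51, a size under 1.5-fold either way, with a median of -0.01 against 0.00 for all genes. In footprints 6 of 41 tested members rose, 1 fell and 34 were not called, where 21.2% of 9181 genes were called. SETDB2 had too few footprints to be tested. The members' median was 0.11 in footprints against 0.01 for all genes. Footprints per mRNA, the interaction of genotype and assay, rose for 2 of 41 members and fell for 0 (6 had an unadjusted edgeR p under 0.05, and DESeq2 called the same 2). Of 9166 genes 4.16% were called in it, 1.67% higher and 2.49% lower. In each of the 23 mRNA calls and 7 footprint calls the groups did not overlap. The same libraries gave the calls, so this is no separate support. Over all genes both mutant libraries lay above wild type for 34% and below for 33.9% in mRNA. In footprints these shares were 29.5% and 29.3%.

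These calls rest on the small spread between replicates. When the biological coefficient of variation was set to 10%, in place of the 2.25% (mRNA), 1.92% (footprints) and 2.17% (both) that edgeR estimated, no member was called in any comparison, while the members with an unadjusted p under 0.05 numbered 6, 6 and 2. Over all genes 313 were then called in mRNA (2.91%), 288 in footprints (3.14%) and 13 for footprints per mRNA (0.142%). DESeq2 called 7 members in mRNA (SETD2, KMT2E and EZH2 higher; KMT2D, SETD1A, DOT1L and EHMT1 lower), where it called 13.6% of all genes. In footprints DESeq2 called none, with 1 at an unadjusted p under 0.05, where it called 4.32% of all genes. It gave many members no adjusted p there, among them NSD3, ASH1L, KDM4B and KDM6B, so these were not assessed. In footprints per mRNA DESeq2 called 1.44% of all genes. Genes without an adjusted p count as not called in all DESeq2 numbers given here. Without the filter on low counts KDM4B, KDM5C, KDM6B and PHF2 were not called in mRNA, nor SETD2, NSD3, ASH1L and KMT2D in footprints.

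**Figure D1:**
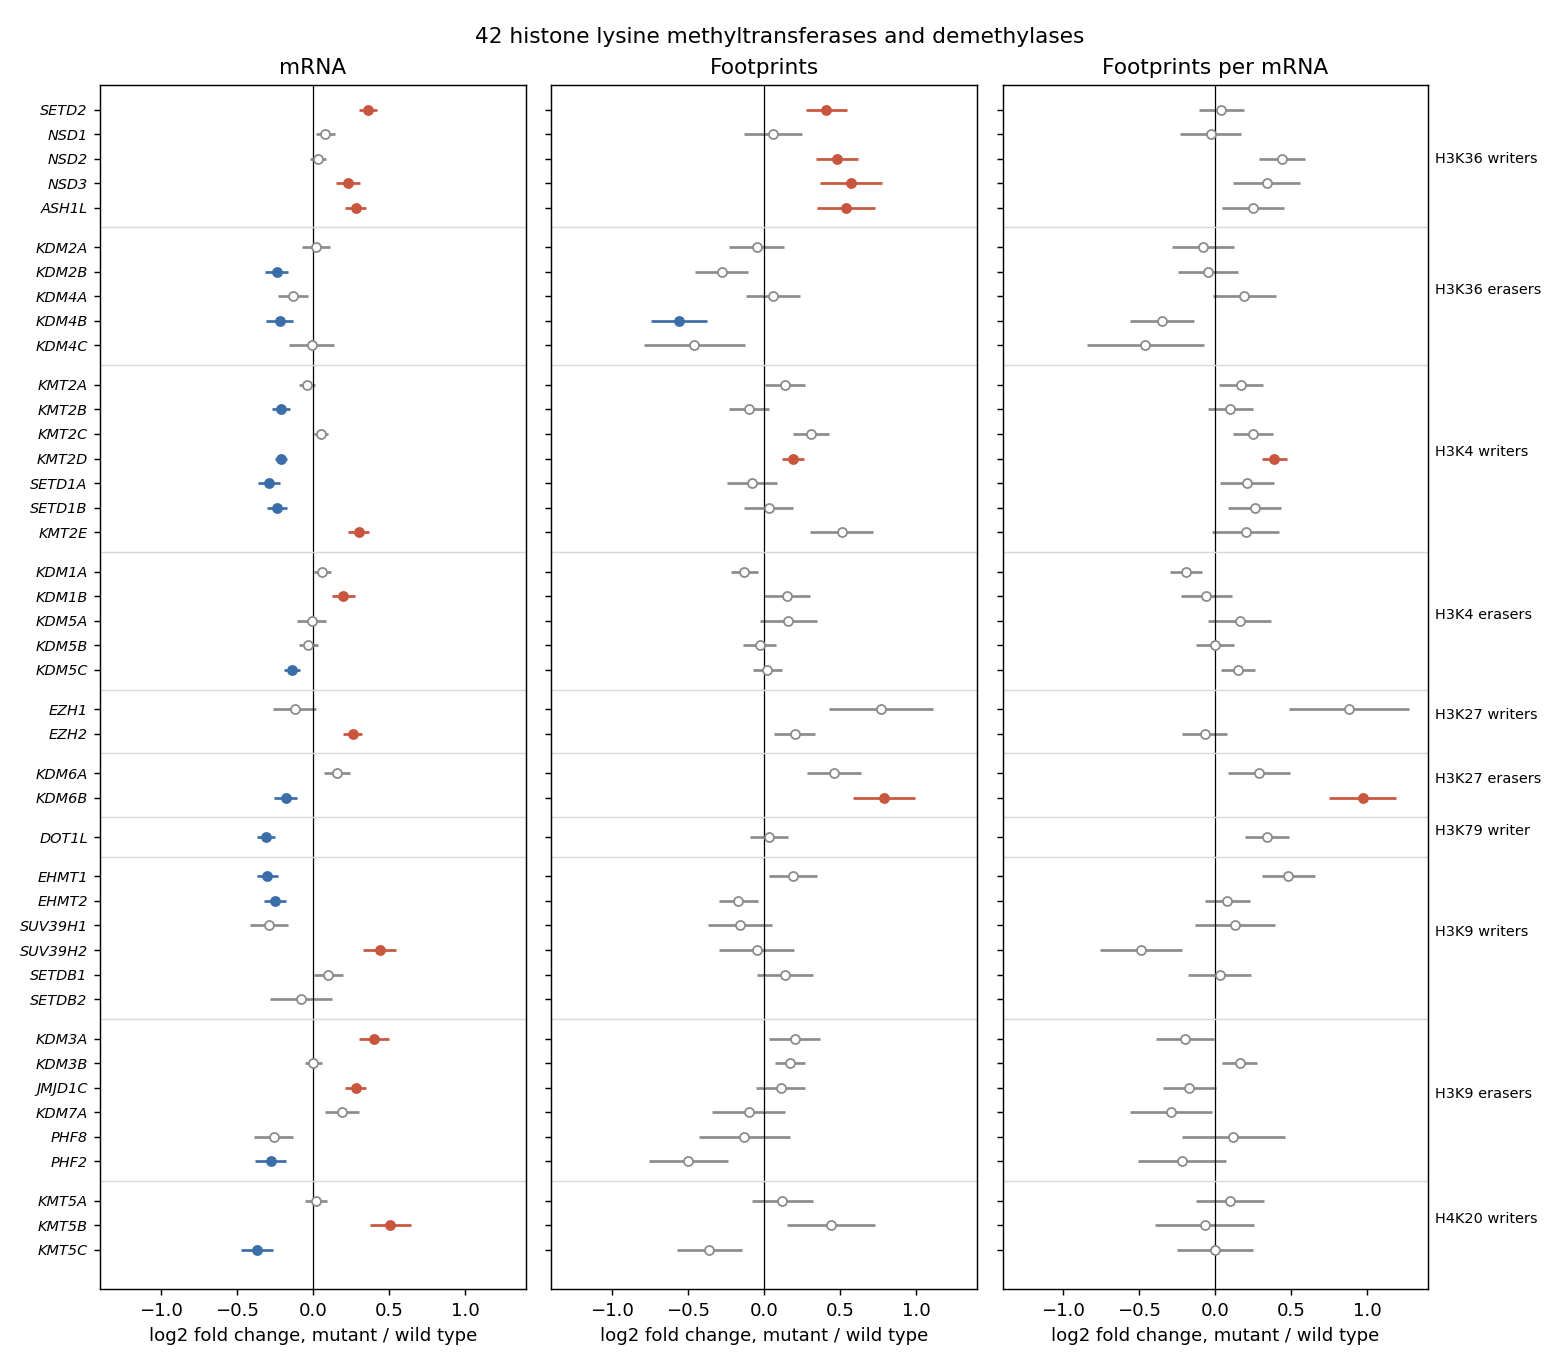
Log2 fold change (mutant over wild type, horizontal axes) of the 42 members, grouped by target residue, in the 3 comparisons, with bars of 1 SE from edgeR. Filled points were called at an adjusted p under 0.05 (red higher, blue lower), open points were not. In mRNA 10 members rose and 13 fell, with 13 of the 23 calls kept and KMT2B, KDM6B and EHMT2 above 0 after removal of the density trend described below; SETDB2 was not tested in footprints.

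Of the 5 H3K36 methyltransferases 3 rose in mRNA (SETD2, NSD3 and ASH1L) and 4 in footprints (the same 3 and NSD2), while NSD1 was called in neither. SETD2, the enzyme of the trimethyl mark (ENSG00000181555, chromosome 3, 47016436 to 47164840), was measured in mRNA at 197 and 184 CPM in wild type and at 247 and 239 CPM in the mutant. Both mutant libraries lay above both wild-type libraries (log2 fold change 0.36, SE 0.058, adjusted p = 1.3e-08), a call that held with each mRNA library left out. Its footprints were 98.9 and 81.6 CPM in wild type against 131 and 99.4 CPM in the mutant. The lower mutant value and the higher wild-type value nearly met, and the rise (log2 fold change 0.41, SE 0.134, adjusted p = 0.0193) was not called without wild-type replicate 2 (0.26) or mutant replicate 1 (0.15). Footprints per mRNA of SETD2 had a log2 difference of 0.04, adjusted p = 0.922.

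ASH1L (ENSG00000116539, chromosome 1, 155335268 to 155563202), a dimethyltransferase first described in the trithorax group, had mRNA at 116 and 114 CPM in wild type and at 146 and 132 CPM in the mutant (log2 fold change 0.28, SE 0.071, adjusted p = 0.00061). With the density trend described below removed, this was 0.48. Footprints of ASH1L numbered 39.0 and 36.5 CPM in wild type against 52.0 and 58.7 CPM in the mutant, with no overlap of the groups (log2 fold change 0.54, SE 0.192, adjusted p = 0.0329). The mRNA call was lost without mutant replicate 1 (0.20), and the footprint call without each of the 4 footprint libraries in turn (0.46 to 0.64). NSD3, a dimethyltransferase whose short isoform lacks the catalytic domain, had 339 and 446 mRNA reads in wild type, a mean of 99.9 CPM, and stood at 122 and 112 CPM in the mutant (log2 fold change 0.23, SE 0.076, adjusted p = 0.00873). NSD3 footprints lay at 31.5 and 35.4 CPM in wild type against 42.6 and 61.9 CPM in the mutant (log2 fold change 0.57, SE 0.203, adjusted p = 0.0305), the mutant libraries standing apart from each other by more than the wild-type ones. Its mRNA call was lost without wild-type replicate 1 (0.23), wild-type replicate 2 (0.23) or mutant replicate 1 (0.17), and its footprint call without each of the 4 footprint libraries in turn (0.34 to 0.88).

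NSD2 (ENSG00000109685, chromosome 4, 1871393 to 1982192), the enzyme overexpressed in myeloma with its translocation, did not differ detectably in mRNA, at 278 and 270.3 CPM in wild type against 273 and 285 CPM in the mutant (log2 fold change 0.03, SE 0.053, adjusted p = 0.74), with overlap of the groups. In footprints it rose, with 118 and 86.4 CPM in the mutant, after 78.1 and 74.4 CPM in wild type (log2 fold change 0.48, SE 0.141, adjusted p = 0.00863). The 2 mutant libraries differed, and the rise was not called without wild-type replicate 2 (0.43) or mutant replicate 1 (0.18). The interaction for NSD2 was 0.44 (adjusted p = 0.0796). It was called without mutant mRNA replicate 2 (0.48) and without mutant footprint replicate 2 (0.60), and was 0.15 without mutant footprint replicate 1. NSD1, mutated in Sotos syndrome, was called in neither assay: mRNA was 164 and 160.2 CPM in wild type against 174 and 168 CPM in the mutant (log2 fold change 0.08, SE 0.063, adjusted p = 0.314), and footprints were 46.0 and 44.1 CPM in wild type against 47.8 and 45.6 CPM in the mutant (log2 fold change 0.06, SE 0.192, adjusted p = 0.863). In this class 3 of 5 members rose in mRNA and 4 of 5 in footprints, none fell, and all 5 log2 fold changes were above 0 in each assay. For comparison, 18.9% of all genes were called higher in mRNA and 10.3% in footprints. No footprint-per-mRNA difference of the class was called by edgeR or DESeq2, which called 4.16% and 1.44% of all genes. In the class there was 1 unadjusted edgeR p under 0.05.

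None of the 5 demethylases of H3K36 was called higher, and 2 fell in mRNA and 1 in footprints. These shares (40% and 20%) are near the 37.7% and 21.2% of all genes called in either direction. KDM4B, which removes trimethyl marks from H3K9 and H3K36 (ENSG00000127663, chromosome 19, 4969113 to 5153598), was measured in mRNA at 78.5 and 86.4 CPM in wild type and at 70.7 and 71.3 CPM in the mutant (log2 fold change -0.22, SE 0.088, adjusted p = 0.0317), the wild-type libraries lying further apart than the mutant ones. Its footprints were 66.1 and 63.7 CPM in wild type against 37.4 and 53.8 CPM in the mutant, and each mutant library lay below each wild-type library (log2 fold change -0.56, SE 0.184, adjusted p = 0.0181). The mRNA call was lost without wild-type replicate 2 (-0.14), mutant replicate 1 (-0.22) or mutant replicate 2 (-0.22), and the footprint call without mutant replicate 1 (-0.27). KDM2B, a CpG-island-binding demethylase that also recruits a Polycomb complex, fell in mRNA, with 92.5 and 104 CPM in the mutant, after 112 and 118 CPM in wild type (log2 fold change -0.24, SE 0.076, adjusted p = 0.00766), a call that was lost without wild-type replicate 2 (-0.18) or mutant replicate 1 (-0.15). KDM2B footprints gave -0.28, adjusted p = 0.26. KDM2A, KDM4A and KDM4C were not called in either assay, with log2 fold changes of 0.02, -0.13 and -0.01 in mRNA and -0.05, 0.06 and -0.46 in footprints (SE 0.183, 0.179 and 0.334). KDM4C rests on few reads, with 29 and 33 footprint reads in wild type and 12 and 8 in the mutant. Whether the writers and the erasers of H3K36 differ from each other was not tested.

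**Figure D2:**
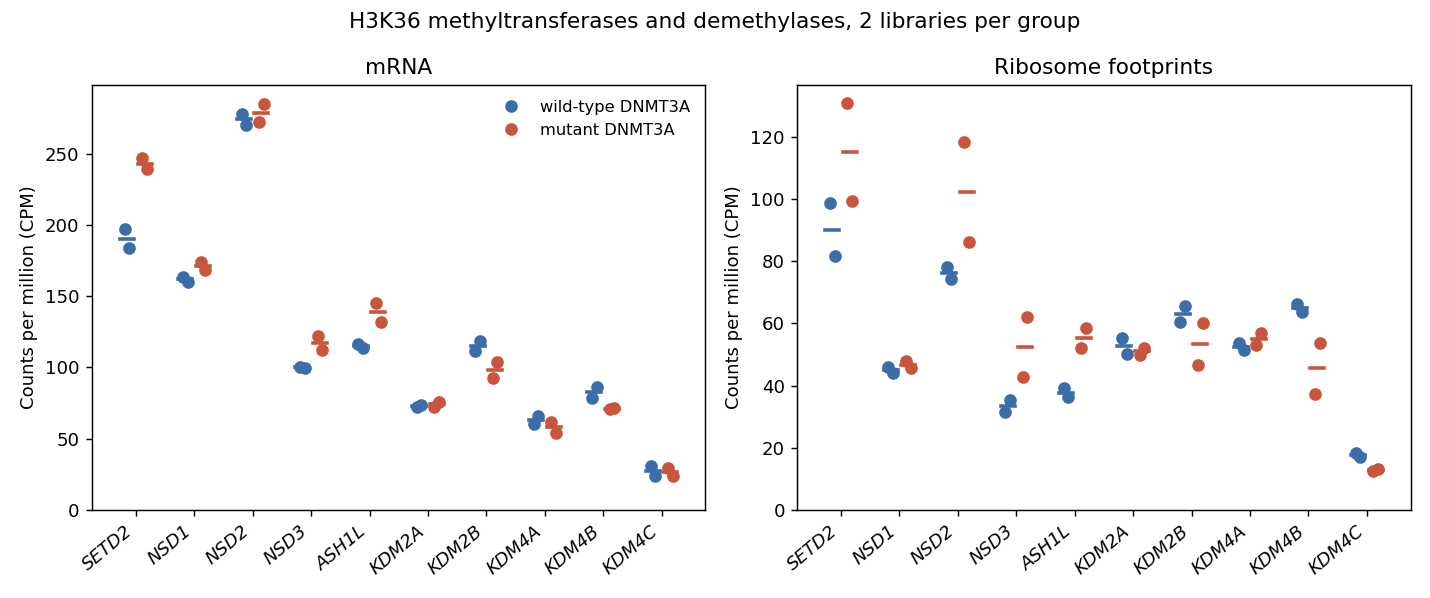
Levels in CPM (vertical axes, from 0) of the 5 H3K36 methyltransferases and the 5 H3K36 demethylases in each library, mRNA on the left and footprints on the right; points are libraries, short lines are means of 2, blue is wild type and red is mutant. SETD2, NSD3 and ASH1L lay higher in both mutant libraries in both assays, and KDM4B and KDM2B lower.

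Of the 7 genes in the H3K4 methyltransferase class, which includes the relative KMT2E, 4 fell in mRNA and none fell in footprints. Of all genes 18.9% were called lower in mRNA and 10.9% in footprints. KMT2D, which with KMT2C places the monomethyl mark at enhancers (ENSG00000167548, chromosome 12, 49018978 to 49060794), was the member with the most mRNA reads, at 809.8 and 825 CPM in wild type and at 699 and 715 CPM in the mutant. It fell in mRNA (log2 fold change -0.21, SE 0.04, adjusted p = 2.2e-06), a call that held with each mRNA library left out. Its footprints stood at 382 and 394 CPM in wild type against 436 and 451 CPM in the mutant, again without overlap but in the opposite direction (log2 fold change 0.19, SE 0.071, adjusted p = 0.046). Footprints per KMT2D mRNA rose (log2 fold change 0.39, SE 0.081, adjusted p = 0.00068), and this call held with each of the 8 libraries left out. The footprint rise by itself was not called without each of the 4 footprint libraries in turn (0.16 to 0.22). The mRNA fall was not called once the density trend described below was removed (-0.06), where the footprint rise was 0.26 and the interaction 0.31, both still called.

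SETD1A and SETD1B, the catalytic subunits of the complexes that trimethylate H3K4 at promoters, fell in mRNA. SETD1A was read at 142 and 147 CPM in wild type and at 115 and 122 CPM in the mutant (log2 fold change -0.29, SE 0.07, adjusted p = 0.00021), and SETD1B at 160.5 and 159 CPM in wild type and at 131 and 140.0 CPM in the mutant (log2 fold change -0.24, SE 0.066, adjusted p = 0.00176). KMT2B, which makes the trimethyl mark and is related to KMT2A, was read at 194 and 214 CPM in wild type against 181 and 173 CPM in the mutant (log2 fold change -0.21, SE 0.06, adjusted p = 0.00233). In all 3 the mutant libraries lay below the wild-type ones. The call of SETD1B was lost without mutant replicate 1 (-0.19) and that of KMT2B without wild-type replicate 2 (-0.13). With the density trend removed SETD1A (-0.07) and KMT2B (0.04, the sign turned) were not called, and SETD1B (-0.17) still was. Their footprints were not called, with log2 fold changes of -0.08, 0.03 and -0.10.

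KMT2E, a relative of KMT2A with a SET domain but without clear methyltransferase activity, went the other way in mRNA, at 134 and 127 CPM in wild type against 169.5 and 149 CPM in the mutant (log2 fold change 0.30, SE 0.067, adjusted p = 7.5e-05). It was not called with the density trend removed (0.13), and its footprints gave 0.51, adjusted p = 0.0648. KMT2A, the gene rearranged in many leukaemias, was not called in mRNA (-0.04, SE 0.052) or footprints (0.14, SE 0.131). KMT2C, whose counts are uncertain because parts of the gene have near-identical copies elsewhere, was not called in mRNA (0.05) and was called lower with the density trend removed (-0.12). KMT2C footprints gave 0.31 (adjusted p = 0.0535), which was 0.45 and called without wild-type replicate 1, 0.15 without wild-type replicate 2 and 0.10 with the trend removed. In the class 4 of 7 fell and 1 rose in mRNA, where 18.9% of all genes were called in each direction. In footprints 1 of 7 rose, where 10.3% of all genes were called higher. All 7 interaction differences were above 0, from 0.10 to 0.39, with KMT2D alone called. Of all 9166 genes 4576 had an interaction above 0, and 1.67% were called higher.

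**Figure D3:**
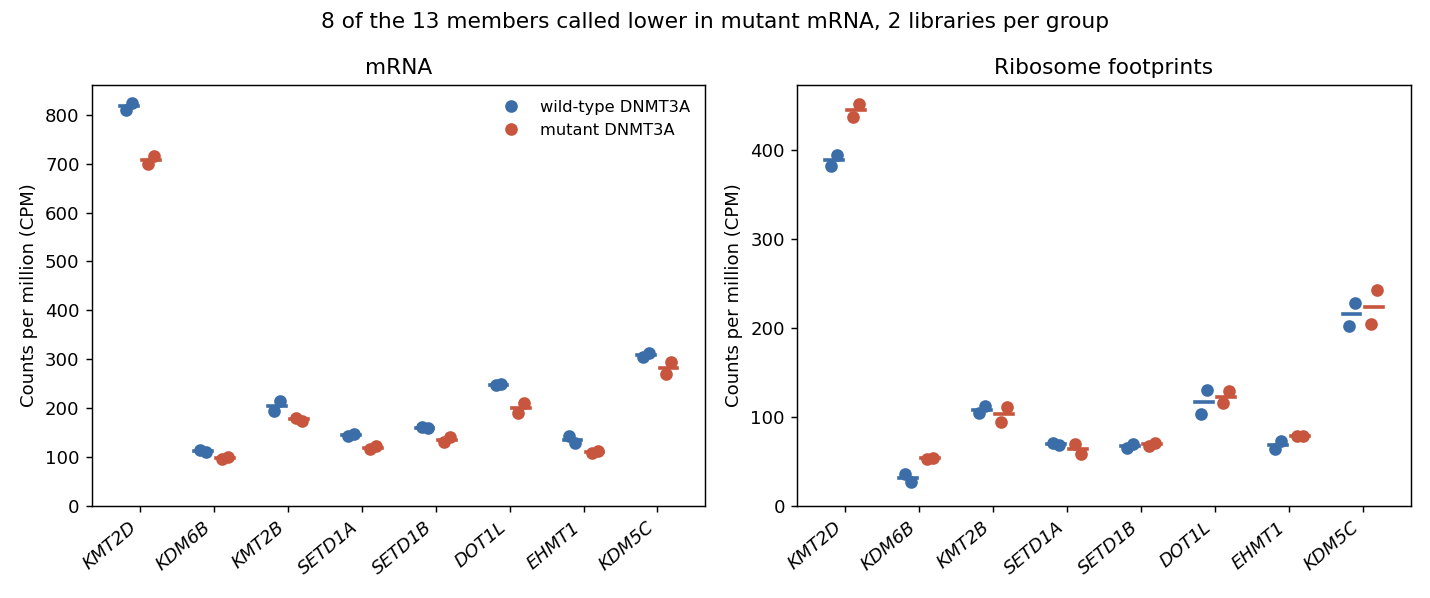
Levels in CPM (vertical axes, from 0) in each library of 8 of the 13 members called lower in mutant mRNA, picked after their values were seen, with mRNA on the left and footprints on the right; points are libraries, lines are means of 2. For KMT2D, KDM6B and EHMT1 both mutant libraries lay below wild type in mRNA and above it in footprints. EHMT1 was called neither in footprints (0.19) nor in footprints per mRNA (0.48). With the density trend removed, KDM6B and KMT2B were above 0 in mRNA.

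Of the 5 demethylases of H3K4, 1 rose and 1 fell in mRNA, and in footprints none was called. The mRNA share (40%) is near the 37.7% of all genes called by edgeR, which called 21.2% of all genes in footprints. KDM5C, an X-linked demethylase of di- and trimethylated H3K4, fell in mRNA, at 304 and 314 CPM in wild type against 270.4 and 294 CPM in the mutant (log2 fold change -0.14, SE 0.051, adjusted p = 0.0266), a call lost without wild-type replicate 1 (-0.15), wild-type replicate 2 (-0.11) or mutant replicate 1 (-0.07) and with the density trend removed (-0.10). KDM1B, the flavin-dependent relative of KDM1A that is needed for maternal imprints, rose to 114 and 123 CPM in the mutant, after 103 and 103 CPM in wild type (log2 fold change 0.20, SE 0.075, adjusted p = 0.0226), a call lost without wild-type replicate 1 (0.20), wild-type replicate 2 (0.21) or mutant replicate 2 (0.16) and with the density trend removed (0.04). KDM1A (LSD1), a drug target in myeloid leukaemia, KDM5A and KDM5B were not called in mRNA (0.06, -0.01 and -0.03). In footprints DESeq2 too called 0 of the 5, though it gave no adjusted p for KDM5A. None had an unadjusted edgeR p under 0.05, and the values ran from -0.13 to 0.16. KDM5B footprints in the mutant were 146 and 148 CPM against 149 and 150.4 CPM in wild type (log2 fold change -0.03, SE 0.111).

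Among H3K27 enzymes EZH2, the main catalytic subunit of Polycomb repressive complex 2 (PRC2), rose in mRNA, with 176 and 164 CPM in the mutant, after 145 and 140.1 CPM in wild type (log2 fold change 0.26, SE 0.065, adjusted p = 0.00039). The call held with each mRNA library left out and with the density trend removed (0.19). EZH2 footprints were 96.4 and 91.9 CPM in wild type against 106 and 111 CPM in the mutant, higher in both mutant libraries but not called (log2 fold change 0.20, SE 0.133, adjusted p = 0.295). EZH1, the alternative catalytic subunit, was not called in mRNA (-0.12), and in footprints its counts were only 11 and 27 reads in wild type and 21 and 8 in the mutant (log2 fold change 0.77, SE 0.342, adjusted p = 0.0936). That value was 1.39 and called without wild-type replicate 2, 0.40 without wild-type replicate 1 and 0.28 without mutant replicate 1.

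KDM6B (JMJD3), an H3K27 demethylase induced by inflammatory signals (ENSG00000132510, chromosome 17, 7834217 to 7854796), gave the largest difference between assays among the members. Its mRNA was 113 and 109 CPM in wild type and at 96.3 and 99.5 CPM in the mutant (log2 fold change -0.18, SE 0.077, adjusted p = 0.0447), and its footprints were 35.3 and 27.2 CPM in wild type against 53.0 and 53.8 CPM in the mutant (log2 fold change 0.79, SE 0.202, adjusted p = 0.00203). The footprints rest on 56 and 53 reads in wild type and on 51 and 33 in the mutant. In neither assay did the groups overlap. Footprints per mRNA rose 1.95-fold (log2 fold change 0.97, SE 0.219, adjusted p = 0.00247), a call lost without wild-type footprint replicate 2 (0.77) or mutant footprint replicate 1 (0.98). The footprint call was lost without wild-type replicate 2 (0.59) or mutant replicate 1 (0.80). The mRNA call was lost without each of the 4 mRNA libraries in turn (-0.21 to -0.16), and its sign turned with the density trend removed (0.08). KDM6A (UTX), its X-linked relative, was not called in mRNA, at 67.9 and 81.9 CPM in wild type against 86.2 and 83.5 CPM in the mutant (0.16, adjusted p = 0.119), or in footprints, at 42.2 and 46.2 CPM in wild type against 59.2 and 63.5 CPM in the mutant (0.46, adjusted p = 0.0566), although in both assays the mutant libraries were the higher ones. KDM6A mRNA was called without wild-type replicate 2 (0.33).

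**Figure D4:**
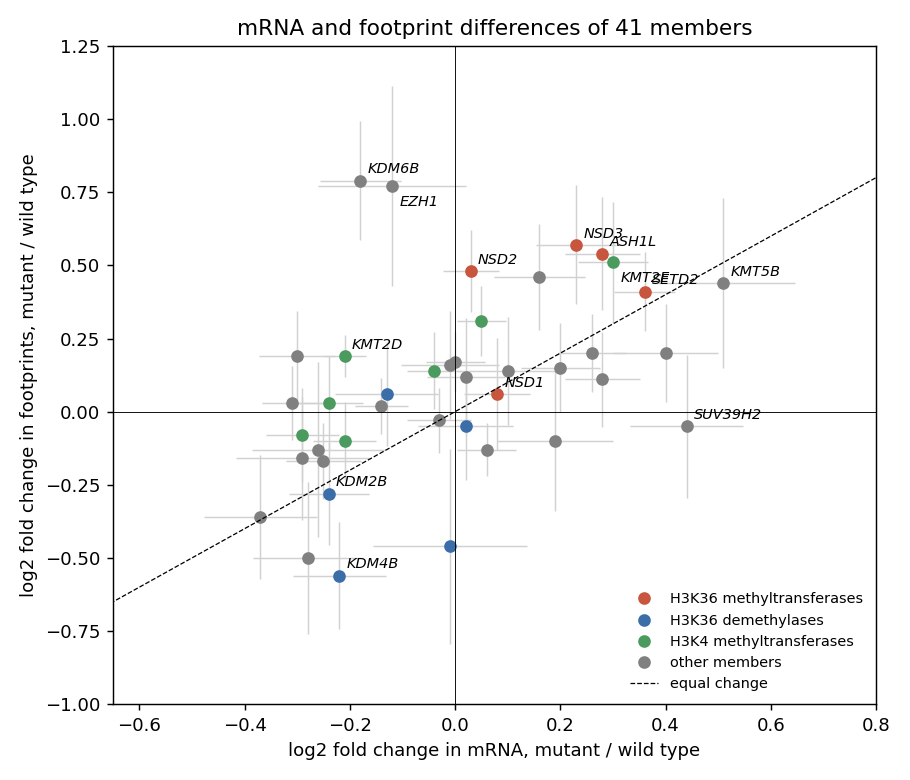
Log2 fold change in mRNA (horizontal) against log2 fold change in footprints (vertical), mutant over wild type, for the 41 members tested in both assays, with bars of 1 SE and a dashed line where both changes are equal. KDM6B lay at -0.18 and 0.79, and KMT2D at -0.21 and 0.19; with the density trend removed KDM6B lay at 0.08 in mRNA.

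DOT1L, the only known H3K79 methyltransferase and a cofactor of KMT2A fusion proteins, fell in mRNA, at 248 and 248 CPM in wild type and at 191 and 211 CPM in the mutant (log2 fold change -0.31, SE 0.057, adjusted p = 9.2e-07). The call held with each mRNA library left out. With the density trend removed it was smaller (-0.16) and still called. DOT1L footprints overlapped between groups, at 103 and 130.4 CPM in wild type against 115 and 129 CPM in the mutant (log2 fold change 0.03, SE 0.126, adjusted p = 0.891). Its interaction gave 0.34 (adjusted p = 0.199), which was called without wild-type footprint replicate 2 (0.53).

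H3K9 methyltransferases moved both ways in mRNA. EHMT1 and EHMT2 (GLP and G9a), partners in the complex that dimethylates H3K9 in euchromatin, both fell. EHMT1 was 142 and 128 CPM in wild type against 107 and 112 CPM in the mutant (log2 fold change -0.30, SE 0.072, adjusted p = 0.00026) and EHMT2 was 134 and 140.3 CPM in wild type against 114 and 118 CPM in the mutant (log2 fold change -0.25, SE 0.071, adjusted p = 0.00234). The EHMT1 call held with each mRNA library left out and with the density trend removed (-0.22). The EHMT2 call was lost without wild-type replicate 2 (-0.21), and its sign turned with the trend removed (0.03). SUV39H2, which trimethylates H3K9 in constitutive heterochromatin, rose in mRNA to 56.6 and 59.8 CPM in the mutant, after 46.6 and 40.1 CPM in wild type (log2 fold change 0.44, SE 0.108, adjusted p = 0.00034), a call lost without wild-type replicate 2 (0.32). EHMT1 footprints were 63.6 and 72.4 CPM in wild type against 77.9 and 78.2 CPM in the mutant (0.19, adjusted p = 0.41). EHMT2 footprints were 109 and 116 CPM in wild type against 103 and 97.8 CPM in the mutant (-0.17, adjusted p = 0.393). SUV39H2 footprints were 28.3 and 29.3 CPM in wild type against 31.2 and 22.8 CPM in the mutant (-0.05, adjusted p = 0.924). In footprints the groups overlapped for SUV39H2, and both mutant libraries were above both wild-type libraries for EHMT1, and both mutant libraries were below both wild-type libraries for EHMT2. SUV39H1 (-0.29, adjusted p = 0.0555), SETDB1 (0.10) and SETDB2 (-0.08) were not called. SUV39H1 was called without wild-type replicate 1 (-0.41) or mutant replicate 2 (-0.49). None of the 5 members tested in footprints was called by edgeR, against 21.2% of all genes. None of the 5 had an unadjusted edgeR p under 0.05. Their values ran from -0.17 to 0.19. In footprints DESeq2 called neither EHMT1 nor EHMT2 and gave no adjusted p for SUV39H1, SUV39H2 and SETDB1.

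Among H3K9 demethylases KDM3A, a hypoxia-inducible enzyme, rose in mRNA from 53.1 and 51.7 CPM to 66.5 and 71.5 CPM (log2 fold change 0.40, SE 0.099, adjusted p = 0.0004), and held with each mRNA library left out and with the trend removed (0.37). JMJD1C, a member of the same family that is needed in several leukaemias, rose from 109.8 and 113 CPM to 133 and 137 CPM (log2 fold change 0.28, SE 0.072, adjusted p = 0.0007). It was not called with the trend removed (0.12). PHF2, a demethylase with a PHD finger that reads H3K4 trimethylation, fell from 62.9 and 56.0 CPM to 48.7 and 48.1 CPM (log2 fold change -0.28, SE 0.104, adjusted p = 0.0203), a call lost without wild-type replicate 1 (-0.21), mutant replicate 1 (-0.29) or mutant replicate 2 (-0.27). With the trend removed it was larger (-0.43). None of these 3 had overlapping groups. PHF2 footprints were 27.7 and 32.9 CPM in wild type against 23.9 and 17.9 CPM in the mutant (-0.50, adjusted p = 0.163). KDM3A footprints were 62.4 and 53.4 CPM in wild type against 65.5 and 66.8 CPM in the mutant (0.20, adjusted p = 0.426). JMJD1C footprints were 64.9 and 63.1 CPM in wild type against 69.6 and 68.4 CPM in the mutant (0.11, adjusted p = 0.671). In footprints both mutant libraries were above both wild-type libraries for KDM3A and JMJD1C, and both mutant libraries were below both wild-type libraries for PHF2. KDM3B (0.00), KDM7A (0.19) and the X-linked PHF8 (-0.26, adjusted p = 0.0938) were not called. In footprints none of the 6 was called by edgeR, against 21.2% of all genes. None of the 6 had an unadjusted edgeR p under 0.05. The values ran from -0.50 (PHF2) to 0.20 (KDM3A). DESeq2 gave an adjusted p in footprints for KDM3B alone (0.608).

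The 3 writers of H4K20 split. KMT5B, which makes the di- and trimethyl marks, rose most of all members in mRNA, from 26.0 and 25.7 CPM to 37.0 and 36.6 CPM (log2 fold change 0.51, SE 0.136, adjusted p = 0.00093). The call held with each mRNA library left out. Its paralog KMT5C fell furthest, from 53.7 and 60.4 CPM to 48.3 and 40.2 CPM (log2 fold change -0.37, SE 0.107, adjusted p = 0.00252), a call lost without wild-type replicate 2 (-0.27) or mutant replicate 2 (-0.25) and with the density trend removed (-0.13). KMT5A, the monomethyltransferase active in mitosis, was not called (0.02, SE 0.074). In footprints KMT5B stood at 20.8 and 14.4 CPM in wild type against 17.7 and 32.6 CPM in the mutant, with overlap (0.44, adjusted p = 0.286), and KMT5C at 39.0 and 48.3 CPM in wild type against 34.3 and 34.2 CPM in the mutant (-0.36, adjusted p = 0.225).

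Without a test, groups could also be read by overlap. In mRNA both mutant libraries lay above both wild-type libraries for 14 of 42 members and below for 14, where this held for 34% and 33.9% of all genes tested. In footprints the counts were 14 above and 8 below of 41, against 29.5% and 29.3% of all genes. Of the writers 9 of 23 lay above and 2 below in footprints, and of the erasers 5 and 6 of 18.

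Occupancy was described in wild type as the edgeR log2 ratio of footprints to mRNA relative to the median gene of 9166. It is given as a description, with no test. The ratio depends on the share of coding sequence in the transcript and on library scaling. Coding lengths were not used here, so differences between genes or classes cannot be read as differences in translation. Of 41 members 38 lay below the median gene, with a median of -0.84. H3K36 methyltransferases ran from -1.88 (NSD2) and -1.88 (NSD1) to -1.12 (SETD2). The H3K4 methyltransferase class, with its relative KMT2E, ran from -2.03 (KMT2E) to -0.95 (KMT2B). KDM6B stood at -1.88, at percentile 1.93 of all genes. The same wild-type libraries enter its interaction, so the low level and the higher mutant value are not independent. The 3 members above the median gene were KDM3A (0.10), KDM1A (0.08) and SUV39H1 (0.07). H3K36 demethylases, from -0.90 to -0.31, lay nearer the median gene than the methyltransferases of that residue.

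The mRNA differences followed local gene density, counted as protein-coding genes within 500 kb on either side. The genes were put in 4 groups by that count. In the group with the fewest neighbours (0 to 7) the median log2 fold change was 0.17 in mRNA and 0.14 in footprints, and in the group with the most (25 to 75) it was -0.20 and -0.15. The median member had 14.5 neighbours and the median gene tested 12. Of 9 members in the sparsest group 3 rose and 1 fell in mRNA, and of 13 members in the densest 1 rose and 7 fell. Over all genes 18.9% were called in each direction, and the shares within each group were not counted. These member counts therefore cannot be set against other genes of like density. ASH1L, with 37 neighbours, was the member that rose in a dense region. When a smooth trend with density was removed in each library, 17 members were called in mRNA (9 higher, 8 lower), where 27% of 10616 genes were called, and 13 of these calls were among the 23 above. SETD2 (0.38), ASH1L (0.48), NSD3 (0.25) and NSD1 (0.20, not called before) were then higher in mRNA. KDM2B (-0.22), KDM4B (-0.30) and PHF8 (-0.42, not called before) were lower. KMT2C (-0.12) and SETDB1 (0.30) were also called only then. In footprints 6 members were called after removal, where 16.9% of genes were called, NSD3 (0.56) being lost. The removal also moved the all-gene median, from 0.01 to -0.04 in footprints and from 0.00 to -0.04 in footprints per mRNA. The part of this shift in the changed calls was not tested. Over all genes the footprint calls changed from 945 higher and 1005 lower to 535 higher and 1005 lower, and those of footprints per mRNA from 153 and 228 to 103 and 319 (4.65% of genes called), with KMT2D and KDM6B still the members called. What lies behind the trend was not tested.

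**Figure D5:**
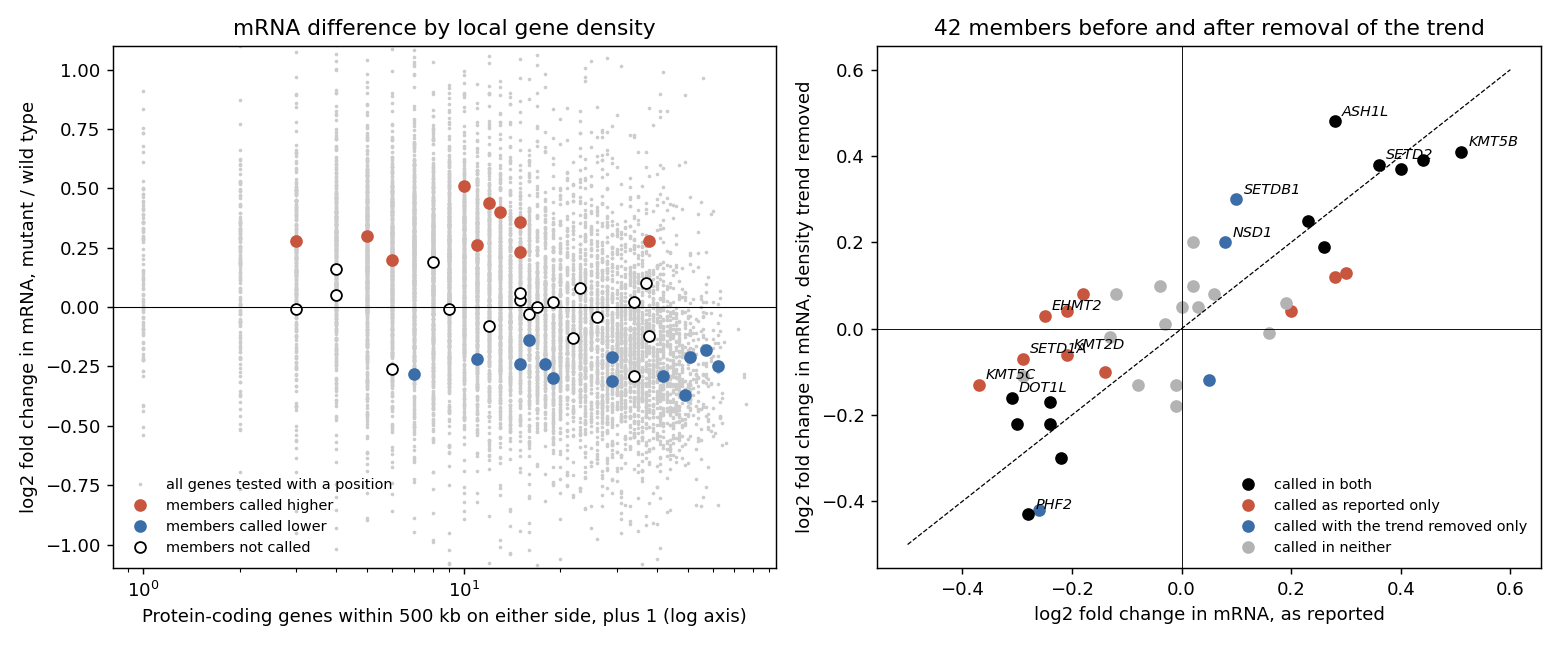
Left, log2 fold change in mRNA (vertical, -1.1 to 1.1 shown) against the number of neighbouring genes plus 1 (log axis) for genes tested (grey) and the 42 members. Right, the members' mRNA log2 fold change as reported (horizontal) against that with the trend removed (vertical); 13 calls were shared, and KMT2B, KDM6B and EHMT2 turned from below to above 0.

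Partner genes of these enzymes, from lists of complex subunits and readers, were counted in the same fits. Of 9 tested PRC2 partners 4 rose and 1 fell in mRNA, and 2 rose in footprints. This is 55.6% and 22.2% of the list, where 37.7% and 21.2% of all genes were called. SUZ12 and EED, the subunits without which EZH2 is inactive, rose in mRNA by 0.43 and 0.41 on the log2 scale (adjusted p = 4e-06 and 0.00312) and in footprints by 0.60 and 0.57 (adjusted p = 0.0216 and 0.00908). SUZ12 mRNA was 75.0 and 73.2 CPM in wild type against 100.4 and 98.8 CPM in the mutant. MTF2, an accessory subunit that recruits PRC2 to CpG islands, rose by 0.33, and PHF19, which reads H3K36 trimethylation, fell (log2 fold change -0.18). The list's median was 0.17 in mRNA and in footprints. With the density trend removed 2 rose and 2 fell in mRNA and the median was 0.06. SUZ12 (0.33) kept its mRNA call, and EED (0.26) and MTF2 (0.20) did not. The footprint calls of SUZ12 (0.47) and EED (0.40) were lost too, in a setting where the all-gene footprint median was -0.04. In mRNA EED was not called without wild-type replicate 2 (0.27) or mutant replicate 1 (0.19), MTF2 not without mutant replicate 1 (0.26), and PHF19 not without wild-type replicate 2 (-0.18). In footprints SUZ12 was not called without wild-type replicate 2 (0.43) or mutant replicate 1 (0.28), and EED not without wild-type replicate 2 (0.34), mutant replicate 1 (0.51) or mutant replicate 2 (0.59).

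Of 13 subunits and partners of the H3K4 complexes 3 rose and 3 fell in mRNA, and 2 fell in footprints, or 46.2% and 15.4% against 37.7% and 21.2% of all genes. HCFC1, a large adaptor of SETD1 and KMT2 complexes, fell in mRNA (541 and 552 CPM in wild type against 385 and 411 CPM in the mutant; log2 fold change -0.46, SE 0.045, adjusted p = 6.7e-22) and in footprints (-0.26, adjusted p = 0.0157). MEN1 (menin), which tethers KMT2A to chromatin, fell in mRNA (-0.35, adjusted p = 0.00014), and the nucleosome remodelling subunit BPTF rose (0.26, adjusted p = 8.2e-05). PSIP1 (LEDGF), whose PWWP domain reads H3K36 methylation and which links KMT2A and menin to chromatin, rose in mRNA, at 42.2 and 41.9 CPM in wild type against 65.6 and 64.1 CPM in the mutant (log2 fold change 0.63, SE 0.105, adjusted p = 5.9e-08). Its footprints stood at 47.9 and 52.9 CPM in wild type against 52.0 and 40.7 CPM in the mutant (-0.09, adjusted p = 0.787), and its footprints per mRNA fell (log2 fold change -0.72, SE 0.212, adjusted p = 0.0341), a call lost without wild-type mRNA replicate 2 (-0.72), mutant mRNA replicate 1 (-0.71), wild-type footprint replicate 2 (-0.65), mutant footprint replicate 1 (-0.95) or mutant footprint replicate 2 (-0.60). With the density trend removed HCFC1 mRNA was -0.26, and MEN1 (-0.15), BPTF (0.13) and HCFC1 footprints (-0.15) were not called. BPTF was also not called without wild-type replicate 2 (0.19), and HCFC1 footprints not without wild-type replicate 2 (-0.23), mutant replicate 1 (-0.27) or mutant replicate 2 (-0.26).

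Of 14 readers and partners of H3K36 methylation 5 rose and 3 fell in mRNA, or 57.1% against 37.7% of all genes. HDGF (-0.24), BRPF3 (-0.40) and HDGFL2 (-0.34) fell, and PHF20L1 (0.50) rose. HDGF (-0.09) and HDGFL2 (-0.19) were not called with the density trend removed. HDGFL2 was also not called without wild-type replicate 2 (-0.21) or mutant replicate 1 (-0.18), and PHF20L1 not without wild-type replicate 1 (0.28), while it was 0.86 without wild-type replicate 2. In footprints none of the 14 was called by edgeR or DESeq2, which called 21.2% and 4.32% of all genes. Of the 14, 3 had an unadjusted edgeR p under 0.05. Among 11 H3K9 partners 4 rose and 2 fell in mRNA, or 54.5%: TASOR (0.49), of the HUSH silencing complex, ZNF644 (0.52), a cofactor of EHMT1 and EHMT2, and the heterochromatin protein CBX3 (0.32) rose, and TRIM28 (-0.24), which brings SETDB1 to zinc finger proteins, fell. In footprints 2 of the 11 rose and 2 fell, or 36.4% against 21.2% of all genes, with CBX3 at 0.69 and TRIM28 at -0.23. The CBX3 mRNA call was lost with the density trend removed (0.14), where TASOR was 0.32 and TRIM28 -0.11. The footprint calls were lost for CBX3 without mutant replicate 1 (0.55) and for TRIM28 without wild-type replicate 2 (-0.17) or mutant replicate 1 (-0.19).

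Of 10 partners of KDM1A 1 rose and 2 fell in mRNA, or 30% against 37.7% of all genes. The deacetylase HDAC2 rose in mRNA and footprints (0.42 and 0.50), while GFI1B, an erythroid repressor that recruits KDM1A (-0.35 and -0.46), and HMG20B (-0.26 and -0.53) fell in both. With the density trend removed HDAC2 was 0.26 in mRNA and 0.30 in footprints, GFI1B -0.23 in mRNA, and HMG20B mRNA (-0.11) was not called. HMG20B mRNA was also not called without wild-type replicate 2 (-0.20) or mutant replicate 1 (-0.20), and HDAC2 mRNA was 0.28 without mutant replicate 1. In footprints HDAC2 was not called without mutant replicate 1 (0.49), GFI1B not without mutant replicate 2 (-0.34), and HMG20B not without mutant replicate 1 (-0.35). GFI1B is also one of the erythroid markers whose sum was lower in the mutant. Of 7 tested DOT1L partners 1 rose and 2 fell in mRNA, or 42.9%. MLLT1 (-0.35) and MLLT6 (-0.25) fell, and ENY2 (0.29) rose, and none of these 3 calls held with the density trend removed (-0.20, -0.15 and 0.14). MLLT6 was also not called without wild-type replicate 2 (-0.21) or mutant replicate 1 (-0.11), and was -0.38 without mutant replicate 2. ENY2 was not called without wild-type replicate 1 (0.27), wild-type replicate 2 (0.32) or mutant replicate 1 (0.26). MLLT10 (AF10), a DOT1L cofactor named after its values were seen, was not called in mRNA (0.10, adjusted p = 0.262) and rose in footprints, at 29.6 and 26.2 CPM in wild type against 58.2 and 48.9 CPM in the mutant (log2 fold change 0.97, SE 0.205, adjusted p = 0.00013), and in footprints per mRNA (0.87, adjusted p = 0.00856). The footprint call of MLLT10 was lost without mutant replicate 1 (0.81), and that of footprints per mRNA without wild-type footprint replicate 2 (0.77) or mutant footprint replicate 1 (0.71).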

How the data were processed

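The authors deposited raw counts, whole numbers of reads for each Ensembl gene ID, 1 library per file and not normalized. Per the labels' protocols, RNA was extracted with TRIzol and copied with oligo(dT), while ribosome footprints came from RNase I digestion followed by size selection, ribosomal RNA removal and a small RNA library kit. STAR, Bowtie2, featureCounts, Trimmomatic and cutadapt, and builds GRCh38 and hg38, appear in the submitters' processing notes with no role or order. The sources used here do not give the annotation release, strand setting, counted feature or treatment of reads with several matches, so overlapping or antisense genes and near-identical copies cannot be separated.

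Of 20453 IDs 20407 matched a symbol; positions are from RefSeq, GRCh38.p14. Counts were tested with edgeR 4.0.16 (R 4.3.3; glmQLFit with legacy FALSE, glmQLFTest), with TMM factors within each assay and filterByExpr by genotype, over 4 mRNA libraries, 4 footprint libraries, and all 8 for the interaction of genotype and assay. SE is the log2 coefficient divided by the root of F. CPM uses library totals times TMM factors. Reads carry no molecular identifiers, so floors cover counting error only. The procedure was tested on simulated counts. Alternatives were RLE factors, DESeq2 1.42.0, no filter, a replicate block, a coefficient of variation set to 10%, removal of a lowess trend with gene density, and each library left out. The replicate numbers come from the labels, which do not say that they pair cultures.

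The members, lists and alternatives were chosen with earlier results of these data known. Values in every library are given for H3K36 methyltransferases, DNMT3A and members called in a comparison; of partner lists, up to 4 genes with the smallest mRNA p are named.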

Additional observations from a re-analysis of the deposited data

Results flagged for a closer look

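The difference between mutant and wild type differed between the assays for 2 members by the interaction test of edgeR. KMT2D had a log2 difference in footprints per mRNA of 0.39 (SE 0.081, adjusted p = 0.00068), from -0.21 in mRNA and 0.19 in footprints. KDM6B had 0.97 (SE 0.219, adjusted p = 0.00247), from -0.18 and 0.79, and was not called without wild-type footprint replicate 2 (0.77) or mutant footprint replicate 1 (0.98). In both genes both mutant libraries lay on one side of both wild-type libraries in each assay, but the same libraries gave the calls. With the density trend removed the mRNA values were -0.06 (KMT2D, not called) and 0.08 (KDM6B, not called). Both genes were still called in footprints per mRNA. DESeq2 called both, and neither was called at a coefficient of variation set to 10%.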

How the results depend on the processing

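The number of members called in mRNA was 23 (10 higher, 13 lower). It was 7 (3 and 4) with DESeq2, 0 (0 and 0) at a coefficient of variation set to 10%, and 17 with the gene density trend removed, where 8 were lower. With each library left out it ran from 14 (without wild-type replicate 2) to 19, and the members called lower from 6 to 11; without mutant replicate 1 it was 15, with 7 lower. In footprints the number was 7 (6 higher, 1 lower), and 0 (0 and 0) with DESeq2, which gave no adjusted p for many members. The number was 0 (0 and 0) at 10% too, and 3 with no filter on low counts, 2 of them higher. With each footprint library left out it ran from 0 (without mutant replicate 1) to 5, with 0 to 4 higher and 0 to 1 lower; without wild-type replicate 2 it was 2, and without mutant replicate 2 it was 4. In footprints per mRNA 2 were called, 0 at 10%, and 1 (without mutant footprint replicate 1) to 3 with each library left out. RLE factors gave 23, 7 and 2. Called values turned sign with the density trend removed for KMT2B (0.04), KDM6B (0.08) and EHMT2 (0.03) in mRNA. Of the 33 calls of members and DNMT3A, 33 were lost in at least 1 setting, since none was called at 10%. That was the only setting lost for SETD2, EZH2, DOT1L, EHMT1 and DNMT3A in mRNA. The same was true of KMT2D in footprints per mRNA. Over all genes, calls in mRNA went from 4060 to 1467 with DESeq2, to 313 at 10%, to 2280 without wild-type replicate 2 and to 2653 without mutant replicate 1. In footprints they went from 1950 to 397, to 288, and to between 274 and 1799 with a library left out. In footprints per mRNA they went from 381 to 132, to 13, and to between 142 and 448. With 1 library left in a group, that library is assumed to vary like the others. The cause of the other changes was not tested.

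Samples with the same replicate number share only a number. Deviations of wild-type and mutant libraries correlated at 0.091 over 7009 genes in mRNA and 0.141 over 3071 genes in footprints. With the replicate block the members called numbered 23 for mRNA, 8 for footprints and 2 for their ratio. Removal of a trend with coding length was not run, since coding lengths were not used here. The shallow mutant footprint libraries limit what can be detected: the SE of a member's footprint log2 fold change ran from 0.071 (KMT2D) to 0.342 (EZH1).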

Other observations

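Other SET domain and JmjC genes outside the main list were counted in the same fits. Of 18 tested in mRNA 5 rose and 1 fell, or 33.3% against 37.7% of all genes. PRDM2, an H3K9 methyltransferase of the PRDM family, rose from 96.8 and 90.4 CPM to 114 and 114 CPM (log2 fold change 0.29, SE 0.077, adjusted p = 0.00116, edgeR), and was not called without wild-type replicate 2 (0.24), while with the density trend removed it was 0.19. MECOM (EVI1), a zinc finger oncogene of myeloid leukaemia, rose from 23.0 and 20.8 CPM to 32.6 and 30.5 CPM (log2 fold change 0.54, SE 0.147, adjusted p = 0.00138), with footprints at 0.05, adjusted p = 0.937. Its mRNA call was lost without wild-type replicate 2 (0.46). SETD5 (0.15) rose, and RIOX1 (-0.40), a ribosomal oxygenase, fell. SETD5 was not called without wild-type replicate 1 (0.17), wild-type replicate 2 (0.13) or mutant replicate 1 (0.13). RIOX1 was not called with the density trend removed (-0.32) or without wild-type replicate 1 (-0.38), wild-type replicate 2 (-0.43) or mutant replicate 2 (-0.22), and was -0.62 without mutant replicate 1. In footprints none of 15 was called by edgeR or DESeq2, which called 21.2% and 4.32% of all genes. Of the 15, 3 had an unadjusted edgeR p under 0.05. PRDM16 was without a read in the 4 mRNA libraries.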
